A study of Mus musculus with 60 samples.

Results

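The cortex of undisturbed mice was compared between the start of the light phase (CC0, collected at ZT0, when the lights came on) and 6 h later (CC6, collected at ZT6). These 14 arrays, 7 in each group, were chosen by their labels from the 60 arrays of the series, of which 59 could be assigned to 1 of 9 groups. All mice were male C57BL/6J, an inbred laboratory strain, 2 months old, and were housed singly with light and dark periods of equal length. They were handled daily for 6 days beforehand and were then left alone until dissection. RNA came from the cortex of the left hemisphere of 1 mouse per array, an Affymetrix whole-transcript design (Mouse Gene ST) that measures each transcript with a set of short probes (a probeset). The other groups of the study included undisturbed mice taken at ZT7, ZT8 and ZT11 (CC7, n = 6, and CC8 and CC11, n = 7 each). Others were kept awake for 6 h from ZT0 (SD, n = 7) or allowed to recover from deprivation. Recovery lasted 2 h after 6 h of deprivation (RS2, n = 4), and 3 or 6 h after 5 h of deprivation (RS3 and RS6, n = 7 each). The comparison asks how cortical RNA differs between the end of the active night and the middle of the rest phase; sleep itself was not recorded in these mice.

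Mice are nocturnal, so ZT0 follows their main waking period and ZT6 falls in the time when they sleep most. Clock genes and activity-regulated genes are both known to move with this schedule in the cortex. The molecular clock is a feedback loop in which the proteins of Clock and Arntl switch on Per and Cry genes, whose products then repress them, while Nr1d1 and its relatives repress Arntl. Immediate early genes such as Fos, Arc and Egr1 are switched on within minutes when neurons fire or when the MAP kinase pathway is stimulated, and their RNA decays quickly.

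Of 32819 probesets kept, 52 passed an adjusted p of 0.01 (false discovery rate, FDR; limma with Benjamini-Hochberg adjustment over all kept probesets and 6 RUV factors, which estimate unwanted variation from differences among replicates). Of these, 11 were higher in CC6 (0.0335% of those tested) and 41 were lower (0.125%). The median change over all kept probesets was 0.00 on the log2 scale, and the median size of a change was 0.07. The lower set was led by activity-regulated genes (Arc, Nr4a1, Egr1, Egr2, Nr4a3) and by inhibitors of MAP kinase signaling (Dusp6, Dusp5, Spry4), and it also held the clock genes Cry1, Per2 and Arntl. The higher set was led by the clock genes Ciart, Dbp and Nr1d1. Changes among the lower probesets had a median of -0.37 and among the higher ones of 0.23.

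2 arrays of CC0 stood apart from the others. CC0 replicate 1 had a score of -105.9 on the first principal component, and its small nucleolar RNA probesets lay 1.33 above their group means on the log2 scale (median of 109 probesets), where the other CC0 and CC6 arrays lay between -0.28 and 0.11. CC0 replicate 4 resembled CC6 in the genes that changed. On a scale where the CC0 mean is 0 and the CC6 mean is 1, its median position over the 52 probesets was 0.66. CC0 replicate 3 lay at 0.32, the other 5 CC0 arrays between -0.36 and -0.07, and the CC6 arrays between 0.74 and 1.18. Without CC0 replicate 1, 45 probesets passed and 43 of them were among the 52. Without CC0 replicate 4, 90 passed (25 higher and 65 lower), of which 51 were among the 52. In CC6, replicate 3 was high for several activity-regulated genes, and without it 53 probesets passed. Leaving out CC0 replicate 4 or CC6 replicate 3 was chosen after the values were seen.

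**Figure D1:**
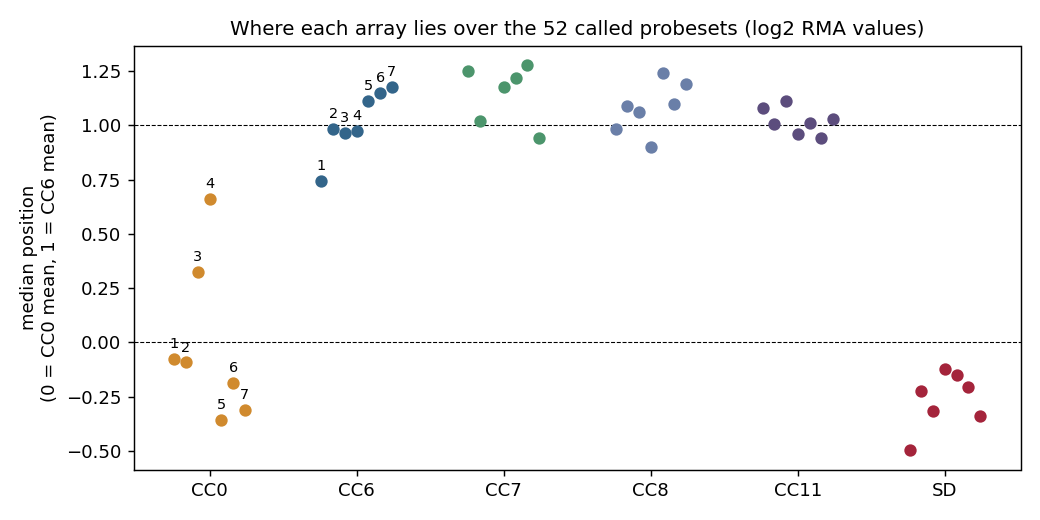
Median position of each array over the 52 probesets that differed between CC6 and CC0, in log2 RMA values, with the CC0 mean set to 0 and the CC6 mean to 1; each point is 1 mouse, numbered by replicate in CC0 and CC6. CC0 replicate 4 lies at 0.66, close to the lowest CC6 mouse at 0.74, and the SD mice lie between -0.50 and -0.12; since CC0 and CC6 set the scale, their own separation is no test.

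Immediate early transcription factors carried most of the largest decreases. Of 25 listed genes measured, 6 fell in CC6 (Nr4a1, Egr1, Egr2, Nr4a3, Klf10 and Fosl2), beside 0.125% of all probesets, and none rose. In all, 21 had a negative change and the median change was -0.27. This list and those below were chosen with earlier results of these data known, so their counts and medians are descriptions and no test. In bulk tissue, fewer expressing cells and less RNA per cell cannot be told apart.

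Egr1, a zinc finger factor induced by neuronal firing, had log2 RMA values of 9.28 to 10.37 in CC0 (median 10.13) and 8.45 to 9.66 in CC6 (median 8.76). It fell by 0.94 on the log2 scale (SE 0.13, 1.91-fold, limma adjusted p = 3.75e-05). CC0 replicate 4 was the lowest CC0 mouse and CC6 replicates 1 and 3 the highest CC6 mice, and the groups overlapped only through these arrays and CC0 replicate 3. Nr4a1, an orphan nuclear receptor made within minutes of stimulation, ranged from 8.81 to 10.40 in CC0 (median 9.82) and from 8.35 to 9.75 in CC6 (median 8.62). Its decrease was 0.97 (SE 0.18, 1.96-fold, limma adjusted p = 0.00277), and CC6 replicate 3 was above 3 of the CC0 mice. For its relative Nr4a3, also a nuclear receptor, the values were 7.39 to 8.13 in CC0 (median 7.97) and 6.97 to 7.66 in CC6 (median 7.22), and it fell by 0.64 (limma adjusted p = 0.00027), with 3 CC0 mice inside the CC6 range.

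Egr2, a factor of the Egr1 family, lay at 6.19 to 7.40 in CC0 (median 6.62) and 5.64 to 6.92 in CC6 (median 5.70). Of the CC6 mice, 5 were below every CC0 mouse, while CC6 replicates 1 and 3 were inside the CC0 range. Egr2 fell by 0.82 (SE 0.17, limma adjusted p = 0.00785). Klf10, a Krüppel-like repressor, was between 7.97 and 9.05 in CC0 (median 8.84) and between 7.75 and 8.34 in CC6 (median 8.11), with CC0 replicate 4 as the only CC0 mouse inside the CC6 range. It fell by 0.55 (limma adjusted p = 0.00279). Fosl2, a partner of Jun proteins in the AP-1 complex, fell by 0.48 (limma adjusted p = 0.00178), from a CC0 range of 7.39 to 8.39 to a CC6 range of 6.96 to 7.57. Neither Egr2 nor Fosl2 passed without RUV (limma adjusted p = 0.0353 and 0.0417).

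Fos and Junb, members of the families that form the AP-1 complex, did not pass the FDR although Fos had a change as large as that of Nr4a1. Fos values were 5.77 to 7.25 in CC0 (median 6.69) and 4.93 to 6.75 in CC6 (median 5.48), a change of -0.97 (SE 0.22, limma adjusted p = 0.0219). For Fos, 4 CC0 mice were within the CC6 range, and CC6 replicate 3 was above the CC0 median. Junb changed by -0.64 (limma adjusted p = 0.0248), Egr3 by -0.40 (limma adjusted p = 0.0333) and Npas4, a factor specific to neuronal calcium signals, by -0.54 (limma adjusted p = 0.11). Without CC0 replicate 4, 10 genes of the list passed, with Fos at -1.10 (limma adjusted p = 0.00519), Junb, Egr3 and Ier5 added. Without CC6 replicate 3, Fos passed at -1.15 (limma adjusted p = 0.00156). Members at the other end included Jun, Jund, Atf3 and Maff, whose changes lay between -0.06 and 0.13.

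**Figure D2:**
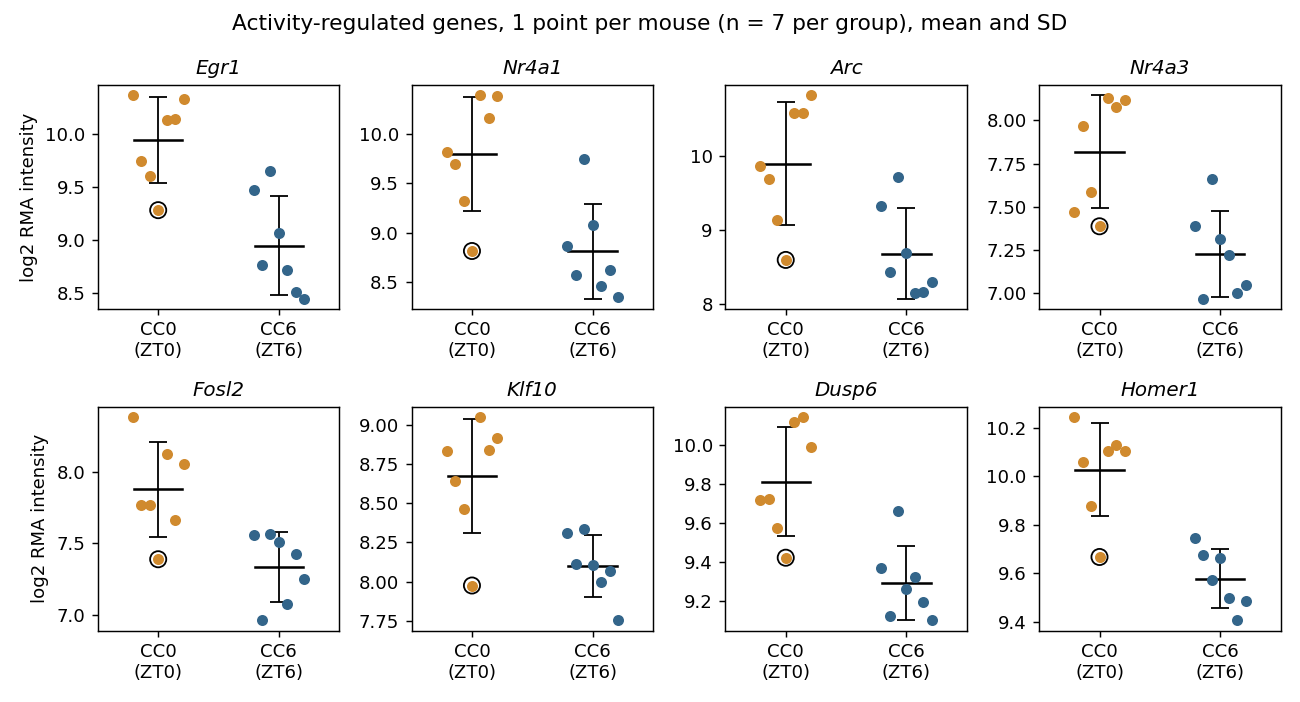
Log2 RMA intensity of 8 activity-regulated genes in CC0 and CC6, 1 point per mouse (n = 7 per group), with the mean and SD; CC0 replicate 4 is circled. It is the lowest CC0 mouse for each of the 8 genes (Arc at 8.59 and Egr1 at 9.28, for example).

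Among activity-regulated effectors, the proteins that act at synapses or in signaling rather than on transcription, Arc and Homer1 fell of 22 measured (2 of 22, beside 0.125% of all probesets), none rose, 19 were negative and the median was -0.23. Arc, which controls the removal of AMPA receptors from synapses, had the largest decrease of the 52 probesets. Its values were 8.59 to 10.83 in CC0 (median 9.87) and 8.15 to 9.71 in CC6 (median 8.43), and it fell by 1.20 (SE 0.25, 2.30-fold, limma adjusted p = 0.00859). In CC0, 4 mice were above every CC6 mouse, and Arc also had the widest spread among the named genes that fell, with an SD of 0.83 in CC0 and 0.61 in CC6. Arc did not pass under several other settings, among them without RUV (-1.22, adjusted p = 0.0353), whereas without CC0 replicate 4 it was at -1.43 (adjusted p = 0.000418), both by limma. Homer1, a scaffold that links metabotropic glutamate receptors to calcium stores and whose short form is activity-induced, was tighter. It ranged from 9.67 to 10.25 in CC0 (median 10.10) and from 9.41 to 9.75 in CC6 (median 9.57), and fell by 0.41 (SE 0.07, limma adjusted p = 0.000416), with CC0 replicate 4 alone inside the CC6 range. The probeset does not separate the isoforms here.

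The kinases Sik1 and Plk3 and the pseudokinase Trib1 of the same list changed by -0.44, -0.37 and -0.49 without passing (limma adjusted p = 0.0486, 0.0209 and 0.0268). The neurotrophin Bdnf (-0.13), the pentraxin Nptx2 (-0.17) and the peptide precursor Vgf (-0.06) had small changes, and Plk2 and Nrn1 were at 0.00 and 0.01. Plk3 and Trib1 passed without CC0 replicate 4, and Plk3 and Sik1 without CC6 replicate 3, so that 4 effectors passed in each case.

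MAP kinase feedback inhibitors are induced by the pathway they restrain. Of 16 measured, 3 fell (beside 0.125% of all probesets) and none rose, 14 were negative and the median was -0.17. Dusp6, a phosphatase that inactivates ERK, was at 9.42 to 10.15 in CC0 (median 9.73) and 9.10 to 9.66 in CC6 (median 9.26). It fell by 0.54 (SE 0.10, limma adjusted p = 0.00189), and CC6 replicate 3 was again the highest CC6 mouse. Dusp5, its nuclear counterpart, fell by 0.49 (limma adjusted p = 0.00756) from a CC0 range of 6.84 to 7.50 to a CC6 range of 6.48 to 6.96, and did not pass without CC0 replicate 1. Spry4, a Sprouty inhibitor of receptor signaling to Ras, lay just inside the threshold at -0.46 (limma adjusted p = 0.00995). Its CC0 replicate 1 value of 6.56 was inside the CC6 range of 6.35 to 6.76. It did not pass without RUV (limma adjusted p = 0.252) or without CC6 replicate 3 (limma adjusted p = 0.0149). Dusp1, the best known member of the family, was at -0.43 (limma adjusted p = 0.34).

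Of 19 clock genes measured, 3 rose (beside 0.0335% of all probesets) and 3 fell (beside 0.125%), with a median change of -0.04. They came from both limbs of the loop. Ciart, a repressor of the Clock and Arntl complex also known as Chrono, showed the largest increase of the 52 probesets. Its values were 6.22 to 7.35 in CC0 (median 6.57) and 7.06 to 7.67 in CC6 (median 7.35). Ciart rose by 0.70 (SE 0.11, 1.63-fold, limma adjusted p = 0.00027), and all CC0 mice but replicate 4 were below all CC6 mice. Without that replicate the change was 0.84 (limma adjusted p = 3.82e-07). Dbp, a factor that binds D-box elements of clock output genes, was at 8.99 to 9.85 in CC0 (median 9.26) and 9.73 to 10.03 in CC6 (median 9.99). It rose by 0.61 (SE 0.08, 1.52-fold, limma adjusted p = 2.73e-05), again with only CC0 replicate 4 inside the CC6 range.

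Nr1d1, the nuclear receptor REV-ERB alpha that represses Arntl, had the lowest adjusted p of all. Its values were 7.88 to 8.73 in CC0 (median 8.47) and 8.87 to 9.22 in CC6 (median 9.03), without overlap. It rose by 0.55 (SE 0.07, 1.47-fold, limma adjusted p = 1.48e-05). All CC6 values were above all CC0 values in 0.0335% of kept probesets and below them in 0.0518%, and of the 52 this held for 3 that rose (Nr1d1, Usp2 and Adam23) and 5 that fell (Cry1, Trib2, Zswim4, Pcsk1 and Creld2). Usp2, a deubiquitinating enzyme with a daily rhythm in many tissues, rose by 0.25 (SE 0.04, limma adjusted p = 0.00047), from values of at most 9.62 in CC0 (median 9.37) to 9.63 to 9.74 in CC6 (median 9.69). It was the only one of 10 measured clock modifiers and outputs to pass, beside 0.0335% of all probesets that were higher. Nr1d2, the paralog of Nr1d1, was at 0.22 (limma adjusted p = 0.15).

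Cry1, a core repressor of the loop, moved the other way. Its values were 7.39 to 7.91 in CC0 (median 7.62) and 7.02 to 7.36 in CC6 (median 7.18), without overlap, and it fell by 0.48 (SE 0.08, 1.39-fold, limma adjusted p = 0.00047). Per2, the other kind of core repressor, ranged from 7.31 to 8.03 in CC0 (median 7.91) and from 7.42 to 7.69 in CC6 (median 7.47). CC0 replicate 1 was below all CC6 mice and the other CC0 mice were above them. Per2 fell by 0.35 (limma adjusted p = 0.00047), and without RUV it did not pass (limma adjusted p = 0.257). Arntl, which encodes the activator BMAL1, fell by 0.27 (limma adjusted p = 0.00157; without RUV adjusted p = 0.197), from a CC0 median of 9.90 to a CC6 median of 9.61, where CC0 replicate 4 was inside the CC6 range of 9.50 to 9.68 and CC0 replicate 1 at 9.49 just below it. Per1 (-0.18), Per3 (0.10), Cry2 (-0.06), Clock (-0.07) and Npas2 (-0.07) did not pass, and neither did the repressors Nfil3 (-0.35, limma adjusted p = 0.035) and Bhlhe40 (-0.23).

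**Figure D3:**
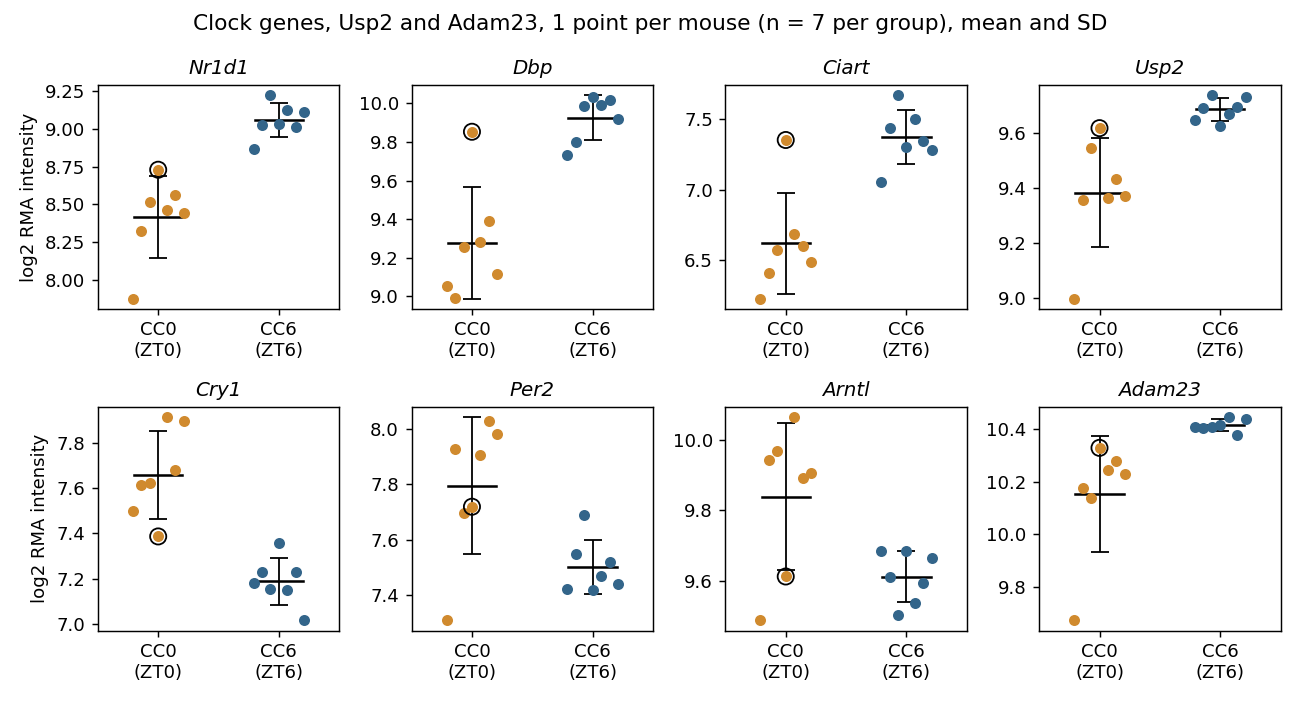
Log2 RMA intensity of clock genes, Usp2 and Adam23 in CC0 and CC6, 1 point per mouse (n = 7 per group), with the mean and SD; CC0 replicate 4 is circled. The groups do not overlap for Nr1d1, Usp2, Cry1 and Adam23, and CC0 replicate 4 lies among the CC6 mice for Dbp (9.85) and Ciart (7.35).

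The promoters of Ciart and Cry1 are shown because both hold the E-box CACGTG, the element bound by the Clock and Arntl complex, although their RNA moved in opposite directions between ZT0 and ZT6. Each sequence of 300 bases spans the RefSeq start and lies mostly before it (GRCm38.p6, on the minus strand in both), and capitals mark each E-box. Ciart lies at chr3:95882179-95882478 and holds 3, and Cry1 lies at chr10:85185005-85185304 and holds 1.
Ciart: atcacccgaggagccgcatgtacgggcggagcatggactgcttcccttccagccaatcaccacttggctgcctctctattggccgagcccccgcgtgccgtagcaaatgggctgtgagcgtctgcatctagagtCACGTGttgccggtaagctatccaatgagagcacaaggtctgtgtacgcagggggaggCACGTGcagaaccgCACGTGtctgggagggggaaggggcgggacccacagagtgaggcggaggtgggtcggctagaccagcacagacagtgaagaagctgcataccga
Cry1: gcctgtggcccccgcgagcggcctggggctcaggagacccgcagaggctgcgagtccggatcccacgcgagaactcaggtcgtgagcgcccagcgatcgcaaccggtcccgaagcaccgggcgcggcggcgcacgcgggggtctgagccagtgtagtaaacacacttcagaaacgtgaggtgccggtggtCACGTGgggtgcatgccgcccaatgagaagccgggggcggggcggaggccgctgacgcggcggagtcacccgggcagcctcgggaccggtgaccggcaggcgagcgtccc
The E-box was present in 7.15% of 32851 RefSeq promoter windows of this length and, since a gene can have several windows, in at least 1 window of 8.09% of 27025 genes. It was found in 1 of 7 genes that rose (Ciart) and 6 of 27 that fell (Egr2, Cry1, Pfkfb3, Irs2, Midn and Galnt9) among those with a promoter entry. The CRE, TGACGTCA, was in 1.79% of windows (2.03% of genes) and among these genes only in that of Pcsk1. Neither GCGTGGGCG, the site of Egr1 proteins (0.612% of windows, 0.707% of genes), nor the D-box TTATGTAA (0.938% of windows, 1.11% of genes) was found in any of them. Both strands were searched, and a match is a description of the letters in this window.

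Of 14 listed genes of glucose and lactate handling, 1 fell (Pfkfb3), beside 0.125% of all probesets, and none rose. The median change was -0.01. Pfkfb3, whose enzyme raises glycolysis through fructose 2,6-bisphosphate, fell by 0.43 (limma adjusted p = 0.002), while hexokinases, lactate dehydrogenases and the glucose and lactate transporters changed by -0.05 to 0.08. Irs2, Pdp1 and Sik2, which were in no list, also fell. Irs2, which relays insulin and IGF1 signals, was at 8.34 to 8.98 in CC0 (median 8.69) and 8.04 to 8.43 in CC6 (median 8.23), and fell by 0.41 (SE 0.07, limma adjusted p = 0.000604). Only CC0 replicate 4 entered the CC6 range. Pdp1, the phosphatase that activates pyruvate dehydrogenase, fell by 0.26 (limma adjusted p = 0.00057), from 10.57 to 11.08 in CC0 to 10.42 to 10.65 in CC6. Sik2, a salt-inducible kinase that keeps CREB coactivators out of the nucleus, fell by 0.29 (limma adjusted p = 0.000315), with CC0 replicate 1 (8.32) below all CC6 mice. Irs2 and Pdp1 passed without RUV, but Sik2 and Pfkfb3 did not (limma adjusted p = 0.257 and 0.0353).

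Of 19 measured chaperones of the endoplasmic reticulum and unfolded protein response genes, 2 fell (Xbp1 and Creld2), beside 0.125% of all probesets, and none rose. Of the 19, 17 were negative and the median was -0.05. Xbp1, the transcription factor of the unfolded protein response, fell by 0.31 (SE 0.06, limma adjusted p = 0.00392) between CC0 values of 9.04 to 9.45 and CC6 values of 8.76 to 9.17. Creld2, a protein of the endoplasmic reticulum induced by stress there, fell by 0.24 (limma adjusted p = 0.00716) with no overlap between 8.24 to 8.49 in CC0 and 8.00 to 8.15 in CC6. Both did not pass without RUV or with array weights, and Creld2 also not with the replicate block. The chaperone Hspa5 (BiP) was at -0.24 (limma adjusted p = 0.0348), passing without CC0 replicate 4 (adjusted p = 0.00566). Of 14 cytosolic heat shock proteins, only Chordc1, a cochaperone of HSP90, fell (by 0.27, limma adjusted p = 0.000866), beside 0.125% of all probesets. Of the 14, 13 were negative and the median was -0.10. The inducible Hspa1a and Hspa1b were each at -0.17 without passing. The DNAJ cochaperones Dnajb5 and Dnajc21, in no list, fell by 0.47 and 0.37. Pcsk1, the protease that matures neuropeptide precursors and also in no list, fell by 0.26 (limma adjusted p = 0.00335), and its groups did not overlap (8.65 to 9.10 in CC0, 8.43 to 8.62 in CC6). None of the 19 neuropeptides and granins passed, with a median of 0.00. Chordc1, Dnajc21 and Pcsk1 did not pass without RUV or with 3 RUV factors, whereas Dnajb5 passed under both. Pcsk1 also did not pass without CC0 replicate 1.

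Other genes that fell included Gadd45a, a growth arrest and DNA damage gene (by 0.48, limma adjusted p = 0.00027), and Gpr3, a constitutively active receptor that raises cAMP (by 0.45, limma adjusted p = 0.00238). Trib2, a pseudokinase, fell by 0.41 (limma adjusted p = 0.000443), and its groups were separated, with 7.67 to 8.09 in CC0 and 7.29 to 7.64 in CC6. Cbln4, a secreted synapse organizer, fell by 0.34 (limma adjusted p = 0.00238), from a CC0 median of 7.35 to a CC6 median of 6.97, and CC0 replicate 4 at 7.05 stood well below the other CC0 mice. Igsf9b, an adhesion protein of inhibitory synapses, and Fmnl1, a formin that builds actin filaments, fell by 0.29 and 0.35. Midn, which carries proteins to the proteasome, fell by 0.38. The ubiquitin enzymes Uba6 and Hectd2 fell by 0.25 and 0.19, and the splicing regulator Srek1 and the TFIID subunit Taf2 by 0.22 and 0.18. Uba6, Hectd2 and Srek1 did not pass without CC0 replicate 1, and Uba6, Hectd2, Srek1 and Taf2 did not pass without RUV. Dlx1as, transcribed opposite the interneuron factor Dlx1, fell by 0.33, and Galnt9, Banp and Zswim4 fell by 0.29, 0.29 and 0.37. Dlx1as, Galnt9, Banp and Zswim4 also did not pass without RUV, and neither did Cbln4, Igsf9b, Fmnl1 and Midn. Gadd45a, Gpr3 and Trib2 passed without RUV. For Taf2, CC0 replicate 1 at 8.44 lay far below the rest of CC0 (median 9.21, CC6 median 9.02), and a two-sided exact permutation test of the RMA values gave p = 0.492, the highest of the 52. At the other end, 8 of the 52 reached the smallest p that the 3432 assignments of 14 arrays allow, 0.000583, among them Cry1, Trib2, Nr1d1, Usp2 and Adam23. The same arrays chose these probesets, so the permutation p adds no independent evidence.

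Outside the clock, few genes rose. Adam23, a neuronal surface protein that binds the epilepsy protein LGI1, rose by 0.20 (SE 0.03, limma adjusted p = 0.000604). Its CC6 values were within 10.38 to 10.45, and all CC0 values, 9.67 to 10.33, were below them. Fbxl4, a mitochondrial F-box protein, rose by 0.23 (limma adjusted p = 0.00605), Dipk2a by 0.24, the formin Fhod3 by 0.20 and the uncharacterized 2210408I21Rik by 0.19 (each limma adjusted p = 0.00995). In Fhod3 and 2210408I21Rik the highest CC0 value came from CC0 replicate 1, and for 2210408I21Rik that value, 8.96, was above every CC6 mouse. Dipk2a did not pass without CC0 replicate 1 and 2210408I21Rik did not pass without CC6 replicate 3.

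Of the 52, 14 of those that fell and 4 of those that rose (Nr1d1, Dbp, Ciart and Usp2) passed also in the RMA values without RUV. When CC0 and CC6 were fitted alone, with 3 RUV factors, no probeset passed and the lowest adjusted p was 0.0381 (Nr1d1, limma). Of the 32819 probesets tested, 2731 had an unadjusted limma p under 0.05. In the fit of CC0 and CC6 alone without RUV the lowest adjusted p was 0.706 (Cry1, limma), again with no probeset passing. There, 1482 of the 32819 had an unadjusted limma p under 0.05. The 52 calls come from a fit that takes its spread and RUV factors from the other groups as well. The SD among mice was larger in CC0 than in CC6 for 36 of the 41 that fell and 11 of the 11 that rose, beside 75.2% of all kept probesets. Without CC0 replicate 1 this held for 31 of the 41 and 8 of the 11, beside 50.6% of all. The probesets just outside the threshold were Wdr78 (-0.24, limma adjusted p = 0.0101), P4ha1 (-0.30, limma adjusted p = 0.0105) and Lrrk2 (-0.25, limma adjusted p = 0.0108), beside Spry4, Fhod3, Dipk2a and 2210408I21Rik at 0.00995 just inside it.

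None of 19 glucocorticoid-responsive genes passed (median -0.02, lowest limma adjusted p = 0.452). Of the 19, 2 had an unadjusted limma p under 0.05, beside 3116 of all 32819 kept probesets. Sgk1, Fkbp5 and Tsc22d3, common reporters of corticosterone, changed by 0.12, 0.08 and -0.05. Cirbp, an RNA-binding protein that is induced by mild cooling, was at 6.78 to 7.30 in CC0 (median 6.89) and 7.18 to 7.48 in CC6 (median 7.29). Its change was 0.35 (SE 0.09, limma adjusted p = 0.0557), and 6 CC0 mice were below every CC6 mouse. None of 18 cholesterol genes passed, although 14 were positive with a median of 0.06; Sqle, a rate-controlling enzyme of the pathway, had the lowest adjusted p at a change of 0.17 (limma adjusted p = 0.0473).

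**Figure D4:**
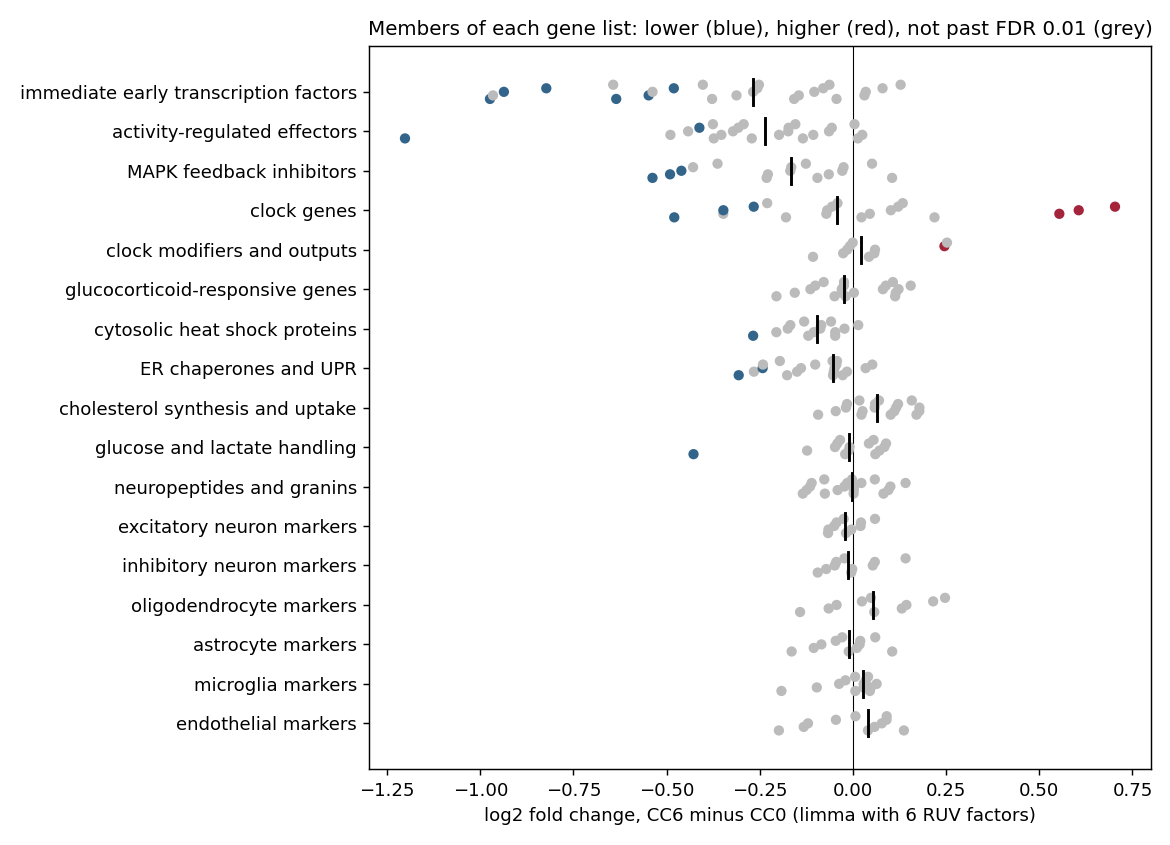
Log2 fold change of CC6 against CC0 (limma with 6 RUV factors) for the members of each gene list, 1 point per gene, with blue for genes that fell, red for genes that rose, grey for genes not past the FDR and a bar at the median of the list. The activity lists lie left of 0 (medians -0.27, -0.23 and -0.17), clock genes spread to both sides (median -0.04) and cell type markers lie around 0. The lists were chosen with earlier results of these data known.

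The labelled tissue was checked with markers. Excitatory neuron markers, among them Slc17a7, Neurod2 and Tbr1, were measured in all 14 arrays at mean log2 values of 9.61 to 9.78. No marker of excitatory neurons, inhibitory neurons, oligodendrocytes or their precursors, astrocytes, microglia, endothelial or mural cells passed, and the list medians lay between -0.02 and 0.09. Oligodendrocyte markers Opalin and Mog were at 0.25 and 0.22 (limma adjusted p = 0.0749 and 0.0866). Neighbouring tissue varied between dissections. The striatum list had a mean level of 7.97 to 9.08 in CC0 and 7.87 to 8.99 in CC6 (median change -0.08 over 8 genes, none passing), and the choroid plexus list 5.28 to 7.01 and 5.22 to 5.69 (median change -0.23 over 5, none passing). Ttr, the defining choroid plexus gene, was at 11.06 and 10.29 in CC0 replicates 4 and 7 and at 7.60 or less in the other 12 mice. Its part in the results was not tested.

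The same 52 probesets were followed into the later light phase. CC7, CC8 and CC11 were compared with the same CC0 mice, so these values share their controls with the comparison above and are given side by side. Of the 41 that fell, 34 were lower past the FDR at CC7 (0.311% of all probesets were), 35 at CC8 (0.393%) and 29 at CC11 (0.631%), with median changes of -0.41, -0.39 and -0.39. Of the 11 that rose, 8 were higher at CC7 (0.0975%), 7 at CC8 (0.222%) and 7 at CC11 (0.344%). Arc had means of 8.45, 8.46 and 8.39 at CC7, CC8 and CC11 beside 8.68 at CC6.

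Several clock genes were further from CC0 at the later times than at ZT6, or nearer to it; the later groups were not tested against CC6. Mean log2 values of Ciart were 6.62, 7.37, 7.64, 7.74 and 8.04 at ZT0, ZT6, ZT7, ZT8 and ZT11, and those of Dbp were 9.28, 9.93, 10.05, 10.20 and 10.32. Arntl ran the other way, with 9.84, 9.61, 9.43, 9.38 and 9.29. Ciart, Dbp and Arntl were thus further from CC0 at ZT11 than at ZT6, with changes of 1.35, 0.99 and -0.59. Nr1d1 had its highest mean, 9.06, at ZT6 and was at 8.81 at ZT11. Cry1 was lowest at ZT6 and its CC11 mean of 7.62 was near the CC0 mean of 7.66 (change -0.04, limma adjusted p = 0.865). Per2 was at 8.07 at CC11, above its CC0 mean of 7.80 (change 0.27, limma adjusted p = 0.00343).

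**Figure D5:**
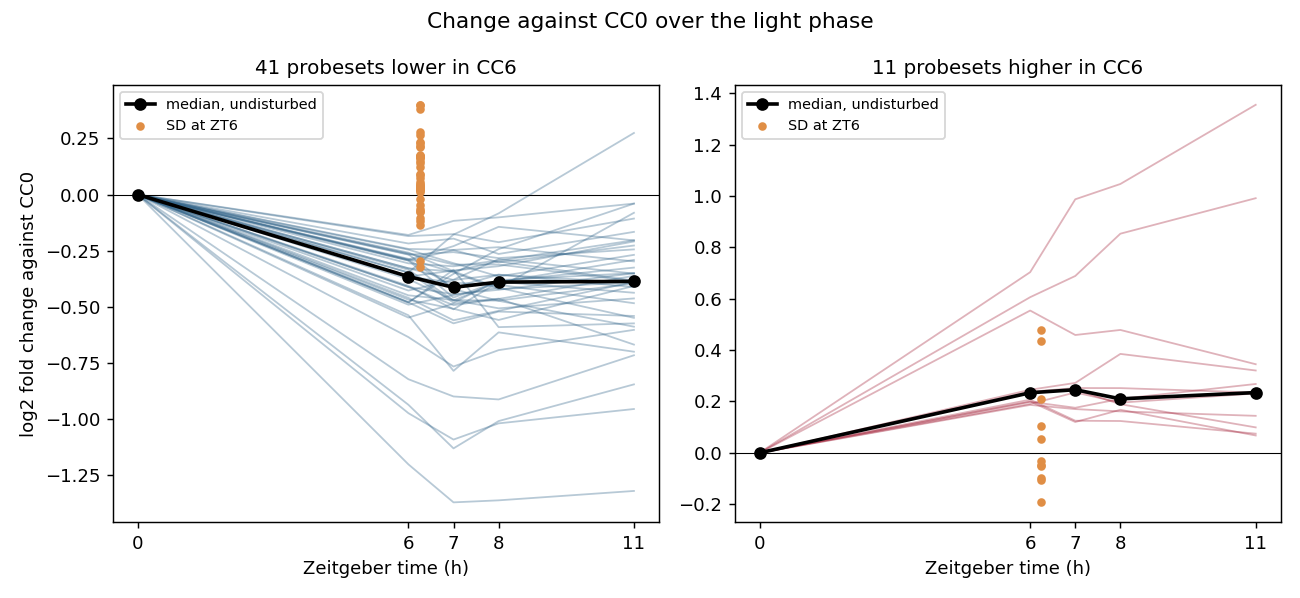
Change against CC0 (log2, limma with 6 RUV factors) of the 41 probesets that fell and the 11 that rose in CC6, by Zeitgeber time in hours, with 1 thin line per probeset, the median in black and the SD mice at ZT6 as orange points. The median of the lower probesets stays near -0.4 (-0.37, -0.41, -0.39 and -0.39), Ciart and Dbp reach 1.35 and 0.99 at ZT11, and most SD values lie near or beyond 0.

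The SD mice were collected at the same clock time as CC6, after being kept awake, and this comparison shares the CC6 mice. Of the 41 probesets that fell from CC0 to CC6, 36 were higher in SD than in CC6 past the FDR (1.09% of all probesets were), and all 41 had a positive difference, with a median of 0.50. Of the 11 that rose, 7 were lower in SD than in CC6 (0.844%). Against CC0, 2 of the 41 (Cbln4 and Galnt9, both higher in SD) and 1 of the 11 (Nr1d1, higher in SD) differed past the FDR; higher calls made up 0.119% and lower calls 0.0548% of all probesets. Arc was at 10.06 to 10.93 in SD (median 10.26), above every CC6 mouse, and differed from CC6 by 1.47 (limma adjusted p = 0.00013). Egr1 was at 9.77 to 10.56 in SD, also above every CC6 mouse, and differed by 0.86 (limma adjusted p = 1.86e-05).

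Among the clock genes the difference between SD and CC6 was uneven. Per2 was higher in SD by 0.58 (limma adjusted p = 3.32e-09), with 7.98 to 8.43 in SD against 7.42 to 7.69 in CC6, and Dbp was lower by 0.40 (limma adjusted p = 0.002), with 9.39 to 9.79 in SD against 9.73 to 10.03 in CC6. Usp2 was lower in SD by 0.28 (limma adjusted p = 9.01e-06). Nr1d1 (-0.12, limma adjusted p = 0.457), Ciart (-0.23, limma adjusted p = 0.319), Cry1 (0.16, limma adjusted p = 0.342) and Arntl (0.16, limma adjusted p = 0.0432) did not pass. Nr1d1 lay at 8.73 to 9.27 in SD, close to its CC6 range of 8.87 to 9.22, and was 0.43 above CC0 (limma adjusted p = 0.000979).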

How the data were processed

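Cortical RNA of 60 mice was hybridized to 1-colour Affymetrix arrays. The authors deposited log2 intensities, made by RMA (background correction, quantile normalization and probeset summary); per the labels no version is named, and whether the deposited log2 values had also passed RUV is not given in the sources used here. Gene names came from the platform annotation, with 53 probesets named through the study's own tables; 19494 kept probesets had 1 symbol, 1445 several and 11880 none, and only probesets with 1 name are named, apart from Per2, Gadd45a, Gpr3 and Dlx1as, for which the study's name was used. Promoters are RefSeq sequences (GRCm38.p6).

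Of 41345 probesets, the 32819 above a log2 value of 4 in more than 50% of arrays were kept. RUVs with 6 factors, the 9 groups as replicate sets, was written out in R 4.3.3, and limma 3.58.1 (lmFit, eBayes) was fitted to 59 arrays with groups and factors; 1 array whose labels disagree was left out. Fold changes are from this fit, whereas ranges and medians are RMA values. Adjusted p-values are Benjamini-Hochberg over all kept probesets, called under 0.01. Precision is limited by the number of arrays (median standard error 0.09). In this fit the p-values measure the spread between mice that is left after the RUV factors, estimated over all 9 groups. It can be far below the raw spread: Taf2 had an SE of 0.04 and an SD in CC0 of 0.31. The scripts were tested on simulated data. Every called probeset with 1 name, and the members of lists by stated rules, could be named; members and lists were chosen with earlier results of these data known. Alternatives changed RUV, filter, normalization, weights, block and arrays.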

Additional observations from a re-analysis of the deposited data

Results flagged for a closer look

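A sample was set apart when its distance to the nearest other member of its group, over the range of the group, exceeded Dixon's limit for a group of that size. This was so in 13 of 104 groups of 7 values tested, of which 9 were gene values among 96; chance alone does so for about 1 in 20.

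CC0 replicate 1 accounted for 10 of the 13. It had the first principal component score of -105.9, the median snoRNA deviation of 1.327, the lowest median log2 intensity of CC0 (5.462) and the largest share of probesets above the filter (81.08%). It was high for Zswim4 (7.8825) and low for Banp (7.334), Sik2 (8.3242), Taf2 (8.4401), Adam23 (9.672) and Usp2 (8.9969). Zswim4, Banp, Sik2, Taf2, Adam23 and Usp2 passed also without this array. CC0 replicate 4 stood out for Cbln4, where it was low (7.0485), and for Ciart, where it was high (7.3527), in both toward the CC6 level. CC6 replicate 2 was high for Taf2 (9.1464).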

How the results depend on the processing

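All 52 probesets kept their direction under the 16 alternatives, and 14 (Ciart, Cry1, Dbp, Dnajb5, Egr1, Gadd45a, Gpr3, Homer1, Irs2, Nr1d1, Nr4a3, Pdp1, Trib2 and Usp2) passed in all but the fits of CC0 and CC6 alone, in which none passed and every list had 0 members past the threshold. The counts of 11 higher and 41 lower (52 in all) became 4 and 14 (18) without RUV, 32 and 74 (106) with the RUV factors subtracted beforehand, 20 and 64 (84) with the filter at a log2 value of 6, 6 and 30 with no filter and 9 and 25 (34) with array weights. They became 10 and 35 (45) without CC0 replicate 1 and 25 and 65 (90) without CC0 replicate 4, which, like leaving out CC6 replicate 3, was chosen after seeing the data. The totals were 37 and 65 with 3 and 9 RUV factors, 60 with a second quantile normalization, 62 with a limma trend and 49 without the 5 arrays of the series that stood apart. The cause of these shifts was not tested; a stricter filter tests fewer probesets.

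Immediate early transcription factors that fell (6) were 4 without RUV, 3 with array weights, 9 with the factors subtracted and 10 without CC0 replicate 4. Effectors that fell (2) were 1 without RUV, with no filter, with array weights, with the replicate block or without the 5 arrays, 5 with the factors subtracted, and 4 with the filter at 6, without CC0 replicate 4 or without CC6 replicate 3. MAP kinase inhibitors that fell (3) were 1 with no filter and 0 with array weights, and clock genes that fell (3) were 1 without RUV.

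The labels describe 7 repeats of the experiment but do not tie replicate numbers to them. Deviations of same-numbered CC0 and CC6 arrays correlated by over 0.1 for 3 of 7 numbers. Only replicates 2, 3 and 5 matched their own number best, so the numbers were not taken to pair the mice. Replicate 1 nevertheless had the lowest first principal component score in CC0 (-105.9), CC6 (-4.143), CC7 (-13.1), CC8 (-29.99) and SD (-135.9). The same held for mice with 6 h of recovery (-42.69), but not for CC11 or mice with 2 or 3 h of recovery. Whether the numbers mark a shared day was not tested. With the replicate number as a block, 57 probesets passed (19 higher and 38 lower), 42 of them among the 52; Arc did not pass (-1.21, limma adjusted p = 0.0185) and Cirbp passed (0.41, limma adjusted p = 0.00875).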
